A study of Mus musculus with 19 samples.

Results

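The TGF-beta core of the mouse ocular surface was followed here through 9 genes, picked by gene symbol with earlier results of these data known. They are the 3 ligand genes *Tgfb1*, *Tgfb2* and *Tgfb3*, the 3 receptor genes *Tgfbr1*, *Tgfbr2* and *Tgfbr3*, and the 3 SMAD genes *Smad2*, *Smad3* and *Smad7*. All 9 were found among the 24552 gene symbols of each deposited table, and all 9 are described in both tissues. The study compared ad libitum feeding (AL) with calorie-restricted feeding (CR) in C57BL/6 mice (C57BL/6J in the study's methods), whose titles give an age of 6 months, by RNA sequencing of cornea (5 AL and 5 CR libraries) and conjunctiva (4 AL and 5 CR libraries). By the study's methods the mice were female and the diets ran for several months from about that age, so the tissue came from older mice. Every title also holds the same number followed by W, which the sources used here do not explain. The corneal sample was epithelium scraped from the eye and the conjunctiva was excised. All 4 groups carried no transgene or deletion that the labels name. Under CR food came at a fixed evening time and under AL it was always at hand, so the amount and the timing of food cannot be told apart. For part of its mice the study describes a CR chow richer in vitamins and micronutrients, and the titles do not say which chow these mice had.

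TGF-beta ligands are secreted in a latent complex and must be released before they can bind a cell. The released ligand binds the type II receptor, encoded by *Tgfbr2*, which then phosphorylates the type I receptor, encoded by *Tgfbr1*. The type I receptor in turn phosphorylates SMAD2 and SMAD3, which enter the nucleus and control target genes, while SMAD7 feeds back on the receptor. At the ocular surface this pathway is known for its roles in epithelial wound closure, matrix deposition and scarring, and immune tolerance of the mucosa.

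Cornea libraries held 10354125 to 14681223 counted reads and conjunctiva libraries 10726717 to 14433441. A gene without a read in a library may have had up to 3 reads, which is 2.27 to 3.37 normalized counts (reads over the library's size factor) and covers counting error only. Most but not all epithelial markers were higher in their own tissue. *Krt12*, the keratin of corneal epithelium, had at least 179850 normalized counts in each cornea library and at most 5139 in each conjunctiva library. *Muc5ac*, the goblet cell mucin, had at least 2328 in conjunctiva and at most 43.3 in cornea libraries. By median, *Aldh3a1*, *Krt5* and *Pax6* were also higher in cornea, and *Krt4*, *Krt19* and *Spdef* in conjunctiva. *Krt13* and *Muc4*, listed for conjunctival epithelium, had medians of 24776 and 14822 in cornea and 18968 and 13965 in conjunctiva. *Krt14*, listed for corneal epithelium, had 5687 and 14053, and *Trp63* 891 and 860, each on the scale of its own table. The share of genes without a read, called unread genes below, moved with diet in the cornea. It was 39.0%, 38.7%, 39.1%, 45.2% and 40.7% in AL 1 to 5 and 39.9%, 46.1%, 45.6%, 42.7% and 47.6% in CR 1, 2, 3, 4 and 7. Cornea AL 1 also stood apart with a sum of 11079 normalized counts over lacrimal gland markers, against 48.3 to 395 in the other cornea libraries. Cornea CR 7 stood apart in epithelial markers, with a sum of 81403 over those of conjunctival epithelium and goblet cells against 39213 to 56866 in the other cornea libraries, and with the lowest *Krt12*, 179850. Cornea markers also moved with diet. All 4 tested lacrimal gland markers were lower in CR (median log2 change −3.16), 1 of them past the threshold. Of these *Scgb2b24* had 6.19 to 8380 normalized counts in AL and 0 to 2.19 in CR libraries, while *Car6* overlapped. All 5 tested macrophage markers were lower in CR, 1 of them past the threshold. The 4 tested markers of conjunctival epithelium and goblet cells were all higher in CR (median log2 change 0.17), 0 of them past the threshold. Of these *Krt4* had 2048.5 to 5102.5 normalized counts in AL and 4582 to 10724 in CR libraries. Of the 6 corneal epithelium markers 4 were higher and 2 lower in CR, and 1 passed the threshold. Among them *Trp63*, a marker of basal epithelium, had 652 to 859 normalized counts in AL and 923 to 1209.9 in CR libraries. *Krt14* of the same list had 5393 to 6581 in AL, 3780 to 5623 in CR 1 to 4 and 11069 in CR 7. The part of these markers in the members' values was not tested.

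No member passed the test for a diet effect in either tissue. In the cornea 8 of 9 members had a mean of at least 10 normalized counts and were tested, and 0 were called (a fold over 1.5 with an adjusted p under 0.05 in limma), where 1.22% of all 12278 tested genes were called. In the conjunctiva all 9 were tested and 0 were called, against 0.359% of 13929 genes. At an unadjusted p under 0.05 there were 2 members in the cornea, *Tgfbr1* and *Tgfbr2*, and 1 in the conjunctiva, *Tgfb2*, where the share over all genes was 18.1% and 9.4%. With limma voom on the recovered reads 0 members were called in either tissue. In the cornea 7 of the 8 tested members were higher in CR, as were 46.9% of all genes, with a median log2 change of 0.24 against −0.03 over all genes. In the conjunctiva 2 of 9 were higher, against 48% of all genes, and the median was −0.10 against −0.02. The diets were fully separated for 1 member in the cornea, *Tgfbr1*, and for 0 in the conjunctiva, and 3.97% and 3.87% of all genes were so separated. The nearest to the threshold was the pair of signaling receptors in the cornea, *Tgfbr1* at 1.36-fold and *Tgfbr2* at 1.63-fold the AL level. The p-values measure the spread between these libraries, whose titles number the mice. Exons of *Tgfb2*, *Tgfb3* and *Tgfbr3* overlap other annotated genes (*Gm29491*, *Gm37804* and *Gm48008*, and *Gm43422*), and without known use of strand in counting their reads cannot be told apart.

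**Figure D1:**
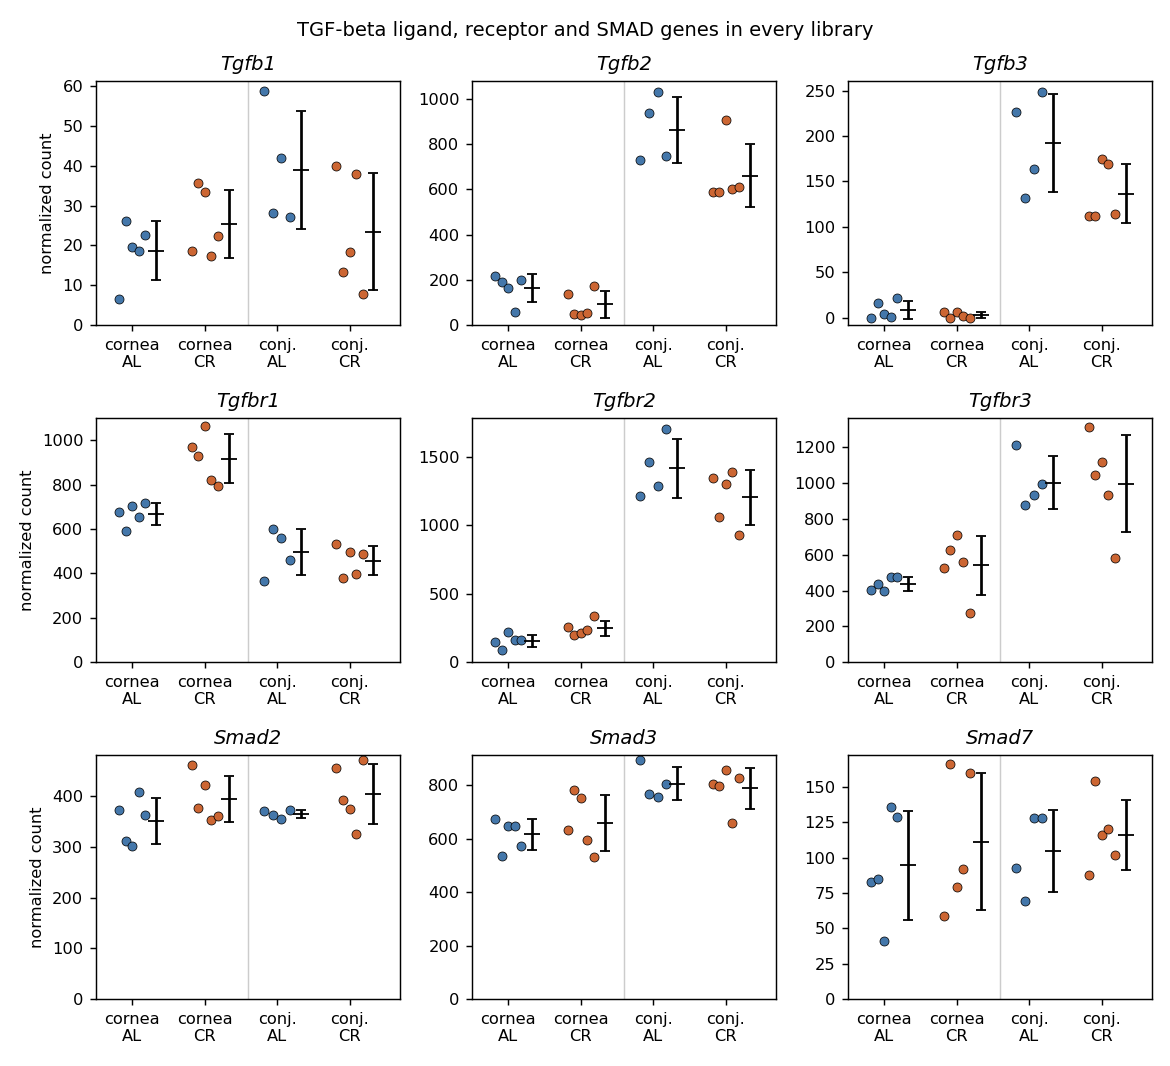
Each panel gives 1 gene, with normalized counts on the vertical axis (linear, each panel on its own scale) and a point for each library of the 4 groups (AL blue, CR orange), beside the mean and SD. In the cornea the 5 CR points of *Tgfbr1* lie above the 5 AL points, while the groups of every other gene overlap in both tissues. Cornea and conjunctiva were scaled separately.

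The promoters of the 3 members with an unadjusted p under 0.05 in either tissue are shown as the upstream sequence of each, 250 bases before the gene start from RefSeq (build GRCm38.p6), read 5′ to 3′ on the gene's strand. Capitals mark GGGCGG (the GC box), CACGTG (the canonical E-box bound by CLOCK and MYC family factors), TATAAA (the TATA box) and CAGAC (a SMAD-binding motif), each searched on both strands. The letters TGACGTCA and TGAGTCA were also searched and were in none of the 3.
Tgfb2, chr1:186705990-186706239, minus strand: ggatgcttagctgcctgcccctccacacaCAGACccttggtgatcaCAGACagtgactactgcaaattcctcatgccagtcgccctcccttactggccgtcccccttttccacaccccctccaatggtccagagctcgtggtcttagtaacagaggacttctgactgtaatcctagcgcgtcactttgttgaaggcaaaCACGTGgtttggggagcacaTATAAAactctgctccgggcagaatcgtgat
Tgfbr1, chr4:47352972-47353221, plus strand: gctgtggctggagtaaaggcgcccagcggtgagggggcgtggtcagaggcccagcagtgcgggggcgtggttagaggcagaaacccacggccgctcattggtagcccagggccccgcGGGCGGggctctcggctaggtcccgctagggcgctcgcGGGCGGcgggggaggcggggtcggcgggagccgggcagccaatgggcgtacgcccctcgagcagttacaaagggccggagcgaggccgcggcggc
Tgfbr2, chr9:116175364-116175613, minus strand: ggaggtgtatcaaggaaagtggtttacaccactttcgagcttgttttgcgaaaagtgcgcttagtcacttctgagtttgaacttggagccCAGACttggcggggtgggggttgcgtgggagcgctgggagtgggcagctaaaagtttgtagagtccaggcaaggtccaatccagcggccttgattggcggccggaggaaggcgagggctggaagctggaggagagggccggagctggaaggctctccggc

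The *Tgfb2* window held an E-box starting 51 bases and a TATA box starting 31 bases before the gene start, motifs present in 6.02% and 12.4% of 32851 promoter windows of the same length, and 2 copies of CAGAC, present in 42.2%. The *Tgfbr1* window was 74.8% G and C and held 2 GC boxes, a motif found in 32.7% of windows. The *Tgfb2* window belongs to a start inside the gene's full span, and a 2nd listed start of *Tgfbr1* inside that gene is not shown. The *Tgfbr2* window, 58.4% G and C, held 1 CAGAC and neither a GC box, an E-box nor a TATA box. A match of these letters is a description and not a shown binding site. Promoter windows were matched for 5 of the 9 members, *Tgfb1* and *Smad3* included.

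Among the ligands, *Tgfb2* was the most abundant in both tissues. *Tgfb2* (chromosome 1, 186622787 to 186709697, minus strand, GRCm38.p6) encodes the isoform known for its abundance in the eye. In the cornea it had 216, 192, 166, 60.1 and 198 normalized counts in AL 1 to 5 and 137, 47.1, 43.2, 55.2 and 175 in CR 1, 2, 3, 4 and 7. The values fell into high libraries (AL 1, 2, 3, 5, CR 1 and CR 7) and low ones (AL 4, CR 2, CR 3 and CR 4), and the diets overlapped. The mean was 166 ± 62.0 in AL and 91.4 ± 60.4 in CR (SD, n = 5 each), which as a log2 change of −0.98 ± 0.45 (SE) did not pass (adjusted p = 0.278 in limma). The 4 low libraries had 45.2%, 46.1%, 45.6% and 42.7% unread genes, and CR 7, with the highest share of 47.6%, had a high *Tgfb2*. With a term for that share in the fit the log2 change was −0.46 (adjusted p = 0.798), and with limma array weights, which count deviating libraries less, it was −1.44 (adjusted p = 0.0122). The part of library quality in this gene was not tested beyond these fits.

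In the conjunctiva *Tgfb2* had 732, 938, 1029.5 and 747 normalized counts in AL 1, 3, 4 and 5 and 589, 587, 909, 602 and 613 in CR 1 to 5. The CR libraries lay below every AL library except for CR 3. The mean was 862 ± 146 in AL (SD, n = 4) and 660.1 ± 139 in CR (n = 5). This is a log2 change of −0.39 ± 0.17 (SE), which did not pass (adjusted p = 0.47 in limma). Without CR 3 the log2 change was −0.51 (adjusted p = 0.139).

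*Tgfb3* (chromosome 12, 86056743 to 86079041, minus strand), the isoform associated with palate fusion and scar-poor repair, had mean RPM (reads scaled to the library total) of 16.3 in conjunctiva AL and 10.9 in conjunctiva CR, against 0.746 and 0.260 in the cornea. It had 226, 131, 164 and 248 normalized counts in conjunctiva AL 1, 3, 4 and 5 and 112, 112, 175, 169 and 114 in CR 1 to 5. Of the CR libraries 3 lay below all AL libraries, and the log2 change of −0.48 ± 0.25 (SE) did not pass (adjusted p = 0.572 in limma). In the cornea it was at 0, 16.4, 4.37, 0.884 and 21.6 in AL 1 to 5 and at 6.57, 0, 6.06, 2.04 and 0 in CR 1, 2, 3, 4 and 7. With 1 AL and 2 CR libraries at 0 reads the gene lay below the filter, and a diet difference was not detectable at this depth. Fitted without the filter, it had a log2 change of −0.92 (limma adjusted p = 0.683).

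*Tgfb1* (chromosome 7, 25687002 to 25705077, plus strand), the isoform known from immune cells and platelets, was low in both tissues. In the cornea it had 6.60, 26.2, 19.6, 18.6 and 22.7 normalized counts in AL 1 to 5 and 18.6, 35.8, 33.3, 17.4 and 22.3 in CR 1, 2, 3, 4 and 7, a log2 change of 0.48 ± 0.51 (SE, adjusted p = 0.647 in limma). In the conjunctiva it had 58.7, 28.1, 42.0 and 27.3 in AL 1, 3, 4 and 5 and 39.9, 13.3, 18.3, 37.9 and 7.76 in CR 1 to 5, a log2 change of −0.87 ± 0.54 (adjusted p = 0.652). The groups overlapped in both tissues. These values rest on between 6 and 73 reads per library, so the 95% intervals were wide, −0.58 to 1.55 for cornea and −2.03 to 0.28 for conjunctiva. The cornea change was 0.17 without AL 1, 0.21 with a term for the share of unread genes, 0.32 with a pseudocount of 10 and 0.93 after quantile normalization, and the conjunctiva change −0.56 without CR 5.

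Per kilobase of exon (GENCODE M21), *Tgfb2* made up a mean of 81.3% ± 9.67 of the ligand signal in cornea AL, 67.7% ± 17.2 in cornea CR, 69.5% ± 8.88 in conjunctiva AL and 71.7% ± 4.30 in conjunctiva CR (SD over libraries). What accompanied it differed by tissue. *Tgfb3* took 26.8% and 25.3% in conjunctiva AL and CR and 6.21% and 4.48% in the cornea, and *Tgfb1* took 12.5% and 27.8% in cornea AL and CR and 3.63% and 2.99% in the conjunctiva. Division by length assumes reads along the whole transcript. Whether they lie so is not settled, since the kit in the labels (stranded mRNA) is not the one in the methods (primed with oligo(dT)).

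The receptors gave the members closest to a diet effect. *Tgfbr1* (chromosome 4, 47353222 to 47414926, plus strand), the type I receptor kinase, had 677, 592, 702, 655 and 717 normalized counts in cornea AL 1 to 5 and 970.3, 927, 1064, 823 and 795 in CR 1, 2, 3, 4 and 7. The lowest CR library lay above the highest AL library, a separation in this direction that 2.08% of all tested genes had. The mean was 669 ± 48.8 in AL and 916 ± 110.1 in CR (SD, n = 5 each). The log2 change was 0.45 ± 0.12 (SE, 95% interval 0.20 to 0.69), short of the threshold (adjusted p = 0.0616 in limma). It passed adjusted p with array weights (0.0135), without AL 4 (0.0405) and without CR 7 (0.0373), and with each of these its fold stayed under 1.5. With a term for the share of unread genes it was 0.47 (adjusted p = 0.134), and with scaling to the 75th percentile 0.30 (0.219).

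In the conjunctiva *Tgfbr1* had 367, 601, 558 and 462 normalized counts in AL 1, 3, 4 and 5 and 533, 378, 496, 398 and 486 in CR 1 to 5. All CR libraries lay inside the AL range, and the log2 change was −0.10 ± 0.18 (SE, 95% interval −0.48 to 0.27, adjusted p = 0.898 in limma).

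*Tgfbr2* (chromosome 9, 116087695 to 116175363, minus strand), the type II receptor that first binds the ligand, had 145, 87.4, 218, 162 and 163 normalized counts in cornea AL 1 to 5 and 255, 201, 214, 234 and 335 in CR 1, 2, 3, 4 and 7. CR 1, CR 4 and CR 7 lay above every AL library and CR 2 and CR 3 lay below AL 3. The mean was 155 ± 46.8 in AL and 248 ± 53.1 in CR (SD, n = 5 each). The log2 change was 0.71 ± 0.22 (SE, 95% interval 0.24 to 1.17), which did not pass either (adjusted p = 0.115 in limma). Without CR 7, the library that stood apart in epithelial markers and had the highest *Tgfbr2*, the log2 change was 0.59. Over all cornea libraries left out in turn it lay between 0.52 and 0.84. In the conjunctiva it had 1214, 1459, 1287 and 1699 in AL 1, 3, 4 and 5 and 1344, 1059, 1302, 1384 and 928 in CR 1 to 5. The groups overlapped, with a log2 change of −0.24 ± 0.16 (SE, adjusted p = 0.679 in limma).

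*Tgfbr3* (chromosome 5, 107106567 to 107289629, minus strand) encodes betaglycan, a co-receptor that presents ligand, TGF-beta 2 above all, to the type II receptor. In the cornea it had 400.5, 435, 398, 475 and 476 normalized counts in AL 1 to 5 and 527, 629, 711, 557 and 274 in CR 1, 2, 3, 4 and 7. Of the CR libraries 4 lay above all AL libraries and CR 7 lay below all of them, and the log2 change was 0.24 ± 0.20 (SE, adjusted p = 0.553 in limma), or 0.47 (0.0816) without CR 7. In the conjunctiva it had 1209.9, 875, 932 and 991 in AL 1, 3, 4 and 5 and 1309, 1042, 1115, 932 and 579.6 in CR 1 to 5, a log2 change of −0.05 ± 0.20 (adjusted p = 0.962). There too a single CR library, CR 5, lay below the AL range.

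**Figure D2:**
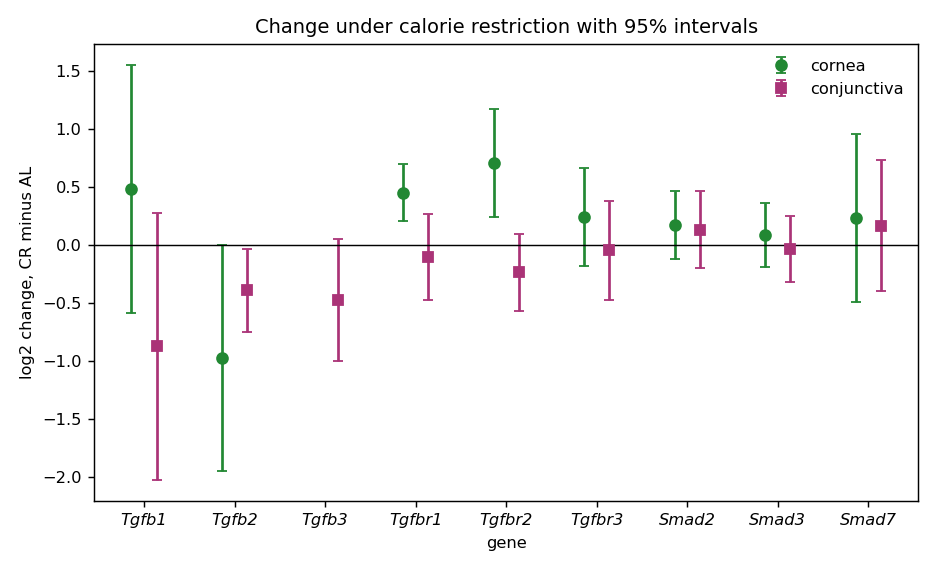
The log2 change of each gene, CR minus AL, is drawn with its 95% interval for cornea (circles) and conjunctiva (squares). The cornea intervals of *Tgfbr1* (0.20 to 0.69) and *Tgfbr2* (0.24 to 1.17) and the conjunctiva interval of *Tgfb2* (−0.75 to −0.03) lie off 0, before any adjustment for the number of genes tested, and *Tgfb3* was not tested in the cornea.

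The difference of the diet effect between the tissues was tested for the 8 members fitted in both. *Tgfbr2* had the largest such difference among the receptors, 0.94 on the log2 scale, cornea minus conjunctiva, with a 95% interval of 0.39 to 1.497. *Tgfbr1* followed with 0.55 (0.12 to 0.99). Neither passed the adjustment over 11929 genes (adjusted p = 0.324 and 0.515 from the limma fits). Adjusted p under 0.05 was reached by 0 of the 8 members and by 0.0168% of all genes, and an unadjusted p under 0.05 by 2 of the 8 and by 7.48% of all genes. Libraries of 4 AL and 4 CR titles came from both tissues of what the titles give as the same mouse, which the test does not use. Taken per shared title, the difference of *Tgfbr2* was 0.55 (adjusted p = 0.909). That fit also leaves out cornea AL 2 and CR 7, the lowest and highest cornea *Tgfbr2*, and conjunctiva CR 5, the lowest there. The pairing and the loss of these libraries cannot be told apart in it.

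The order of the receptors differed between the tissues. In each cornea library *Tgfbr1* had more reads than *Tgfbr2*, with between 0.148 and 0.311 *Tgfbr2* reads per *Tgfbr1* read in AL and between 0.201 and 0.422 in CR. In each conjunctiva library the order was turned, with ratios of 2.30 to 3.67 in AL and 1.91 to 3.48 in CR. The ratio is taken within a library and so does not depend on how the tables were scaled. It was looked at after the values were seen and was given no test. In RPM, *Tgfbr2* had means of 13.4 (AL) and 21.5 (CR) in the cornea and 119.5 and 96.2 in the conjunctiva, and *Tgfbr1* of 57.7 and 79.8 against 42.0 and 36.6. Markers of fibroblasts, which express *Tgfbr2*, summed to between 1201 and 2683 normalized counts in cornea libraries and between 26011 and 52216 in conjunctiva libraries, each on the scale of its own table, and their part in the ratio was not tested. In such bulk samples fewer cells of a type and less RNA per cell cannot be told apart.

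**Figure D3:**
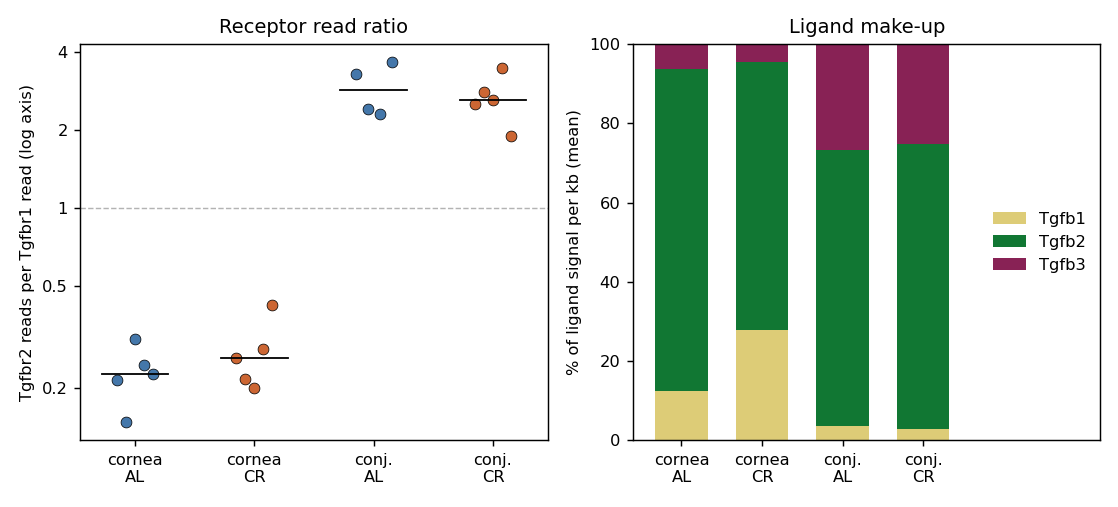
The left panel plots *Tgfbr2* reads per *Tgfbr1* read on a log axis, 1 point a library, a bar for the median of each group and a dashed line at equal reads. All cornea points lie at or below 0.422 and all conjunctiva points at or above 1.91. The right panel stacks the mean share of the 3 ligand genes per kilobase in each group, with *Tgfb2* between 67.7% and 81.3%.

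The SMAD genes did not move with diet in a way the test could tell. *Smad3* (chromosome 9, 63646766 to 63757994, minus strand), a receptor-activated SMAD that binds DNA, had 674, 535, 649, 649 and 574 normalized counts in cornea AL 1 to 5 and 632, 782, 752, 595 and 533 in CR 1, 2, 3, 4 and 7, a log2 change of 0.09 ± 0.13 (SE, adjusted p = 0.764 in limma). In the conjunctiva it had 894, 769, 756 and 803 in AL 1, 3, 4 and 5 and 805, 796, 856, 659 and 826 in CR 1 to 5 (log2 change −0.03 ± 0.14, adjusted p = 0.96). The groups overlapped in both tissues. The 95% intervals of −0.19 to 0.36 and −0.32 to 0.25 bound the change that these libraries allow.

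*Smad2* (chromosome 18, 76241090 to 76311748, plus strand), the other receptor-activated SMAD of the TGF-beta branch, had 372, 310.3, 301, 408 and 361 normalized counts in cornea AL 1 to 5 and 460.0, 376, 422, 353 and 359 in CR 1, 2, 3, 4 and 7, a log2 change of 0.17 ± 0.14 (SE, adjusted p = 0.543 in limma). In the conjunctiva the 4 AL libraries lay close together at 371, 362, 354 and 372, and CR 1 to 5 had 454, 391, 374, 326 and 471 (log2 change 0.13 ± 0.16, adjusted p = 0.843). Of the conjunctiva CR libraries 4 were above the AL range and 1 was below it.

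*Smad7* (chromosome 18, 75367365 to 75395935, plus strand), the inhibitory SMAD that TGF-beta itself induces, was the least abundant SMAD gene per kilobase, at 12.03% and 13.1% of the signal of the 3 SMAD genes in cornea AL and CR and 10.99% and 12.1% in the conjunctiva. It had 82.5, 85.2, 41.5, 135 and 129 normalized counts in cornea AL 1 to 5 and 59.1, 166, 79.5, 92.0 and 159.7 in CR 1, 2, 3, 4 and 7 (log2 change 0.23 ± 0.34 (SE), limma adjusted p = 0.755). In the conjunctiva it had 92.5, 69.6, 128 and 128 in AL 1, 3, 4 and 5 and 87.7, 154, 116, 119.9 and 102 in CR 1 to 5 (log2 change 0.17 ± 0.27, adjusted p = 0.892). The values scattered over a wide range within each group and overlapped. *Smad3* held 62.9% to 69.2% and *Smad2* 19.8% to 24.0% of the SMAD signal as group means, so the 3 genes kept the same order in all 4 groups.

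Around the 9 genes, 6 pathway lists held 89 other genes, of which 64 were tested in the cornea and 87 in the conjunctiva. After adjustment over all genes, 4 were higher and 0 lower in the CR cornea (adjusted p under 0.05, which 1.53% of all genes passed), and 0 were higher and 3 lower in the CR conjunctiva (0.359% of all genes). The lists were chosen with earlier results of these libraries known.

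Of the genes that hold the ligand latent or release it, 10 of 13 were tested in the cornea, where 3 were higher and 7 lower in CR, with a median log2 change of −0.08, and 1 passed. *Ltbp4*, a latent TGF-beta binding protein of elastic fibers, rose from 574 ± 66.3 to 837 ± 126 normalized counts (SD, n = 5 each), a log2 change of 0.54 ± 0.13 (limma adjusted p = 0.0474), with all CR libraries above all AL libraries and a fold under 1.5. It did not pass with voom (0.0578), without a filter (0.073) or with scaling to the 75th percentile (0.114). Its log2 change in the conjunctiva was 0.09 (adjusted p = 0.902). In the conjunctiva 11 of 13 were lower in CR, with a median log2 change of −0.33, and 0 passed. The smallest p there belonged to *Lrrc32*, encoding GARP, which tethers latent TGF-beta at the cell surface, with 301 ± 21.0 in AL and 163 ± 65.7 in CR (log2 change −1.002, adjusted p = 0.233), and to *Nrros*, its relative in myeloid cells, with 161 ± 56.3 and 104 ± 16.9 (−0.57, adjusted p = 0.528). The CR libraries of *Lrrc32* and of *Furin* lay below all AL libraries, where 3.87% of all genes were separated in either direction. Macrophage markers were lower in CR for 10 of 10 genes there, with sums of 3525 to 4637 in AL and 2249 to 3571 in CR, and their part in these values was not tested.

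The co-receptors and pseudoreceptors had 0 of 4 tested genes past the threshold in the cornea and 0 of 6 in the conjunctiva. In the cornea *Tgfbrap1*, which encodes a receptor-associated protein, had a log2 change of 0.24 (limma adjusted p = 0.49) and *Tgfbr3l*, a betaglycan-like gene, of 0.58 (0.595). In the conjunctiva all 6 were lower in CR. The pseudoreceptor gene *Bambi*, whose protein lacks the kinase domain, had 236 ± 47.3 normalized counts in AL and 158 ± 36.0 in CR (−0.58, adjusted p = 0.388), and *Tgfbr3l* a log2 change of −1.27 (0.694).

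The other SMADs also held 0 genes past the threshold, of 4 tested in the cornea and 5 in the conjunctiva. *Smad4*, the shared partner of the activated SMADs, had log2 changes of 0.25 in the cornea (limma adjusted p = 0.447) and 0.31 in the conjunctiva (0.593). *Smad6*, the second inhibitory SMAD, had 0.48 in the cornea (adjusted p = 0.355), and *Smad5*, of the BMP branch, 0.09 in the conjunctiva (0.899).

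Among the 13 SMAD modulators 10 were higher in the CR cornea and 1 passed. *Tgif1*, a homeobox co-repressor of SMAD target genes, rose from 342 ± 33.1 to 527 ± 53.3 normalized counts (SD, n = 5 each), a log2 change of 0.62 ± 0.13 (limma adjusted p = 0.0199), and its groups did not overlap. It did not pass with scaling to the 75th percentile (0.0818), with a term for the share of unread genes (0.117) or with the replicate block (0.14). In the conjunctiva it had a log2 change of −0.30 (adjusted p = 0.594). In the conjunctiva 7 were higher, 6 lower and 0 passed, and the smallest p belonged to *Zfyve9*, which encodes the SMAD anchor SARA (log2 change 0.30, adjusted p = 0.506), and the ubiquitin ligase gene *Wwp1* (0.32, 0.538).

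Among the TGF-beta target genes those that passed were higher in the cornea and lower in the conjunctiva, and were different genes. At an unadjusted p under 0.05 in limma, 3 were higher and 4 lower in the cornea, and 1 higher and 9 lower in the conjunctiva. Over all genes 18.1% and 9.4% reached it in either direction. Of 17 tested in the cornea, the member *Smad7* among them, 9 were higher and 8 lower in CR and 2 passed. *Ctgf*, the matricellular growth factor also named *Ccn2*, rose from 66.6 ± 25.1 to 179 ± 88.0 normalized counts (SD, n = 5 each, log2 change 1.38 ± 0.33, limma adjusted p = 0.0445). It did not pass without a filter (0.064), with scaling to the 75th percentile (0.0818) or with voom (0.0868). *Bhlhe40*, a transcriptional repressor that is also a clock gene, rose from 569 ± 101.6 to 975 ± 123 (0.78 ± 0.14, adjusted p = 0.00651). In the conjunctiva 19 of 26, again with *Smad7* in the list, were lower, with a median log2 change of −0.45, and 3 fell: *Col1a1* from 6458 ± 1153 to 2549 ± 744 (−1.37 ± 0.20, adjusted p = 0.00592), *Col3a1* from 6635 ± 1331 to 2298 ± 788 (−1.57 ± 0.21, 0.00337) and the fibrillin gene *Fbn1* from 764 ± 116 to 306 ± 62.7 (−1.33 ± 0.18, 0.00282; SD, n = 4 AL and 5 CR). The conjunctiva CR libraries of these 3 genes and of *Fn1*, *Col5a1*, *Postn* and *Eln*, which did not pass, lay below all AL libraries. The cornea CR libraries of *Ctgf* and *Bhlhe40* lay above all AL libraries. Of all genes 3.87% in the conjunctiva and 3.97% in the cornea were separated in either direction. *Ctgf* in the conjunctiva had a log2 change of 0.39 (adjusted p = 0.738) and *Bhlhe40* 0.34 (0.46), while *Col1a1* in the cornea had −1.17 (0.275) and *Col3a1* −0.48 (0.757).

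Fibroblast markers were lower in the CR conjunctiva for 10 of 10 genes, with a median log2 change of −0.61 and 0 past the threshold. Their sums were 52216, 35243, 47752 and 51017 normalized counts in AL 1, 3, 4 and 5 and 29353, 30445, 42261, 50001 and 26011 in CR 1 to 5. CR 3, the library with the high *Tgfb2*, had the 2nd highest of the CR sums, and CR 5, with the lowest *Tgfbr2* and *Tgfbr3*, had the lowest. CR 4, with the highest CR sum, had a *Tgfb2* of 602, among the low CR libraries. AL 3, with the lowest AL sum, had a *Tgfb2* of 938 and a *Tgfbr2* of 1459, each the 2nd highest in AL. Its *Tgfbr3* of 875 was the lowest in AL. CR 5 was also lowest of the conjunctiva libraries in endothelial markers (619 against at least 1501) and mural cell markers (3224), and CR 3 highest in endothelial (2562) and skeletal muscle markers (104560). Skeletal muscle markers were higher in CR for 5 of 5 genes, with a median log2 change of 0.55 and 0 past the threshold. Their sums were 10518 to 46862 in AL and 12256 to 104560 in CR. In the cornea the fibroblast markers had sums of 1307 to 2292 in AL and 1201 to 2683 in CR, with 6 of 9 tested genes higher. The part of these cell types in the collagen, ligand and receptor values was not tested.

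The BMP and activin branch, the sister pathways of TGF-beta, had 19 genes tested in the cornea and 28 in the conjunctiva, with 0 past the threshold. The ligand gene *Bmp7* had a log2 change of 0.98 in the cornea (limma adjusted p = 0.176) and *Id2*, a target of BMP signaling, of 0.34 (0.203). In the conjunctiva the ligand gene *Bmp4* had 0.63 (adjusted p = 0.312) and the antagonist gene *Fst*, encoding follistatin, 0.52 (0.318). The CR libraries of *Fst* and of *Fstl3* lay above all AL libraries, and 3.87% of all genes were separated in either direction.

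**Figure D4:**
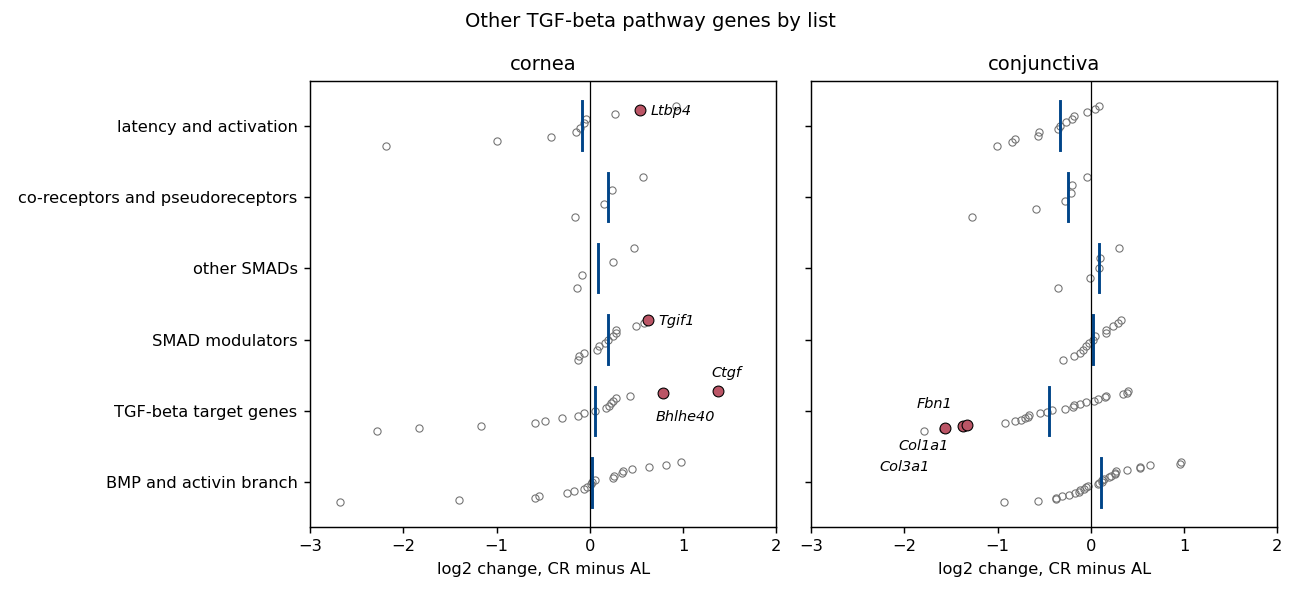
Each point is a gene of 1 of the 6 lists, placed by its log2 change, CR minus AL, in cornea (left) and conjunctiva (right), with a blue bar at the list's median and filled points for an adjusted p under 0.05. The 4 filled genes of the cornea lie to the right of 0 and the 3 of the conjunctiva to the left.

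Single libraries decided calls in the cornea. With each of 10 cornea libraries left out in turn, *Bhlhe40* passed in 10 and *Tgif1* in 5, failing without AL 1, AL 2, AL 5, CR 2 or CR 3 (adjusted p up to 0.081). *Ltbp4* passed in 3, those without AL 4, CR 1 or CR 4, and otherwise had an adjusted p up to 0.158. *Ctgf* passed in 3, those without AL 4, CR 1 or CR 2, and otherwise had an adjusted p up to 0.122. With each of 9 conjunctiva libraries left out the 3 falling genes passed in 9. With a term for the share of unread genes *Ltbp4*, *Tgif1* and *Ctgf* had adjusted p of 0.283, 0.117 and 0.139.

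The order of libraries for *Tgfbr2* was most like that of *Car15*, *Sec13* and *Trim27*, with a likeness of 0.82, 0.78 and 0.76. Likeness is here the smaller of the Pearson correlations of log2 values over the 10 cornea and the 9 conjunctiva libraries, compared over 11928 genes. For *Tgfbr1* the nearest included *Fam149a* and *Dtnb* (0.69 and 0.66), for *Tgfbr3* *Adk*, *Abhd12* and *Igf2* (0.88, 0.87 and 0.85), and for *Tgfb2* *Uqcc3*, *Ext1* and *Slc39a1* (0.85, 0.84 and 0.84). *Tgfb1* was followed by *4931428F04Rik*, *Mdfic* and *Pym1* (0.84, 0.82 and 0.78). Among the SMAD genes, *Smad2* was followed by *Map7*, *Sumo3* and *Scyl3* (0.87, 0.73 and 0.72), *Smad3* by *Zfp111*, *Rhbdf1* and *Snx12* (0.78, 0.76 and 0.72) and *Smad7* by *Nedd1*, *Apba3* and *Mta3* (0.79, 0.70 and 0.69). The points share their libraries, depth and size factors, and the values are given without a test.

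**Figure D5:**
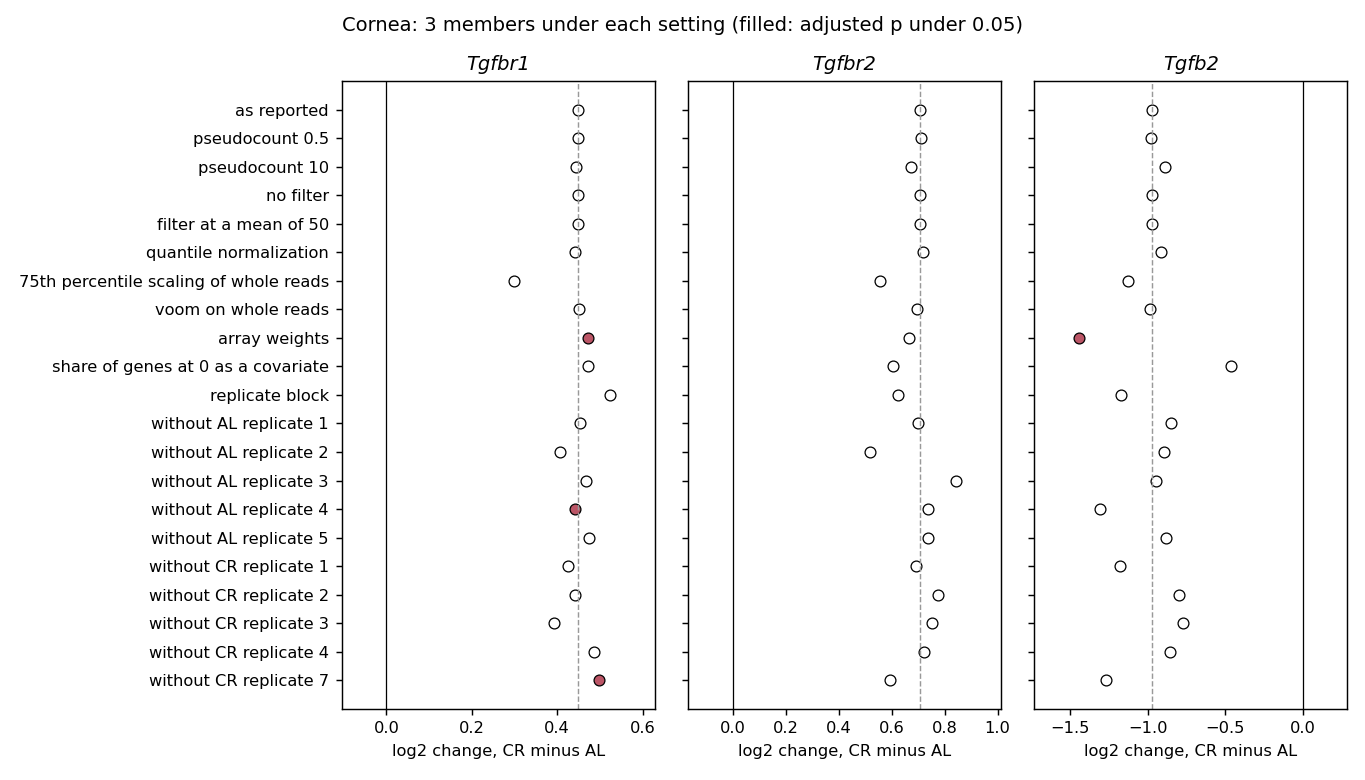
The log2 change in the cornea, CR minus AL, is drawn for *Tgfbr1*, *Tgfbr2* and *Tgfb2* as reported (dashed line), under each other way of processing and with each library left out, with filled points where the adjusted p was under 0.05. *Tgfbr1* is filled in 3 places, *Tgfb2* with array weights and *Tgfbr2* nowhere, and no point crosses 0.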

How the data were processed

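RNA was sequenced from 10 cornea and 9 conjunctiva libraries in 4 groups set by the labels. By the study's methods the authors trimmed single reads with cutadapt, aligned them with STAR to mm10 and counted them with HTSeq, and the authors took size factors by relative log expression from DESeq2. Versions are not given in the sources used here, and the submitters' processing notes name GRCm39. The deposited values are log2 of the count divided by its size factor, plus 1, made by the authors in a table for each tissue. They were turned back into whole reads (100% within 0.01). From 24557 listed features 5 with a repeated symbol were dropped, and no column was unmapped (0).

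Diets were compared within a tissue with limma 3.58.1 (statmod 1.5.0, R 4.3.3) on log2(normalized count + 1), with an intensity trend, robust moderation and Benjamini-Hochberg adjustment over genes averaging 10 or more normalized counts. A call needed an adjusted p under 0.05 and a fold over 1.5. Fold changes on this scale understate low genes. The tissue difference used Satterthwaite degrees of freedom. The study's count model was replaced by limma on the deposited log2 values, with voom on the recovered reads as an alternative. The procedure was tested on simulated data. Replicate numbers did not pair the libraries: the correlations of same-numbered deviations lay between −0.297 and 0.288 (cornea) and −0.062 and 0.053 (conjunctiva). Coordinates and sequences are from GRCm38.p6.

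All 9 members are named. Pathway genes were named when past adjusted p, or else as the 2 smallest p of a list in a tissue. Others, *Furin* and *Fstl3* among them, were named because their diets did not overlap. Members and lists were chosen with earlier results of these data known. For each member the 3 genes most like it were picked by rule, and for *Tgfbr1* one of them is not reported here.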

Additional observations from a re-analysis of the deposited data

Results flagged for a closer look

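*Tgfb2* in conjunctiva CR 3 stood far from its group at 909 normalized counts, where the next library had 613. The gap was 0.92 of the range of the 5 libraries, above the limit of 0.71 for a single deviating value. Of 36 groups examined 1 was picked out in this way, and chance alone picks about 5%.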

How the results depend on the processing

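The count of members called was 0 in each tissue and for the tissue difference, also with each library left out (0 to 0 in all 3 comparisons), except for array weights in the cornea, which gave 1, *Tgfb2*. Over all genes the calls ranged from 53 (without AL 5) to 705 (array weights) in the cornea and from 12 (replicate block) to 149 (array weights) in the conjunctiva. Of the calls 61.3% were higher in the CR cornea, against 27.9% with scaling to the 75th percentile and 37.0% with array weights, and 62.0% in the conjunctiva against 48.0% and 46.3%. The 75th percentile scaling moved the cornea median of all genes by −0.151. *Smad3* there had a log2 change of −0.065, or 0.11 relative to the median.

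Other reversals were in members far from the threshold. *Smad7* in the cornea was −0.42 with a term for the share of unread genes and −0.033 to 0.43 with a library left out. In the conjunctiva *Tgfbr3* was 0.035 with array weights, 0.11 with that term and −0.16 to 0.13 with a library left out, *Smad3* −0.065 to 0.029 and *Smad7* −0.013 to 0.28. The tissue difference of *Smad7* was −0.54 with that term, −0.14 per shared title and −0.20 to 0.26 with a library left out, and that of *Smad2* −0.035 to 0.10. The causes were not tested. With the replicate number as a block, *Tgfbr1* in the cornea was 0.52 (limma adjusted p = 0.149), 0 members were called, and the calls over all genes fell to 54 and 12, with 0 of the 7 named pathway genes past adjusted p. That fit also leaves out cornea AL 5 and CR 7 and conjunctiva CR 2, whose numbers were not in both diets. Without AL 5 alone the cornea had 53 calls. Depth limits *Tgfb1* in both tissues and *Tgfb3* in the cornea.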
